A study of Oryza sativa Indica Group with 8 samples.

Results

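Watered roots of the rice landrace Nootripathu were compared with watered roots of the cultivar IR20 on the Affymetrix rice genome array. The comparison used the 4 arrays labelled as control roots, 2 of Nootripathu and 2 of IR20, out of 8 arrays in the series. All 57258 probe sets that were not array controls entered it, of 57381 on the array. The labels describe Nootripathu as a deep-rooted, low-yielding indica landrace and IR20 as a shallow-rooted, semi-dwarf, high-yielding and drought-susceptible indica cultivar. Both cultivars stood as single plants in pipes 1 m long and 15 cm wide, filled with coir pith and soil, in a greenhouse. The control plants of both cultivars were kept watered and their roots were washed in de-ionised water before freezing, so handling was the same on both sides of this comparison. In the other 4 arrays, 2 stressed Nootripathu and 2 stressed IR20 root samples, water had been withheld from 40 days after sowing and soil was removed by tapping. The labels call the samples biological replicates and do not say whether plants were pooled, so p values measure only the spread between these samples.

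A rice root grows from a tip where cells divide, elongate and then take on the tasks of anchoring the plant and of taking up water, silicon and mineral ions. Cell division is marked by cyclins, cyclin-dependent kinases and the MCM helicase of DNA replication, elongation by enzymes that loosen the wall, and maturation by secondary walls of cellulose and lignin. The cultivars differ in stature as well as in rooting depth: semi-dwarf indica rice commonly carries a defective allele of SD1, a gibberellin 20-oxidase gene.

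Signals are deposited RMA values (log2), and differences are given as Nootripathu minus IR20 on that scale with a standard error (SE), n = 2 arrays a group. Adjusted p values come from limma with Benjamini-Hochberg adjustment over the 57258 probe sets; values under 0.05 count as passing. With 2 arrays on each side, 0.333 is the smallest two-sided p an exact permutation test allows, so none was made. The 2 Nootripathu arrays correlated with each other at r = 0.9975 and the 2 IR20 arrays at r = 0.9970 across probe sets. The median absolute difference between replicate arrays was 0.100 in Nootripathu and 0.123 in IR20. The hybridisation controls averaged 11.26 and 11.22 on the Nootripathu arrays and 10.51 and 10.38 on the IR20 arrays, and the poly-A spike-in transcripts averaged 9.96 and 10.01 on the Nootripathu arrays and 10.15 and 10.23 on the IR20 arrays. The signal of the 3′ end of actin minus that of its 5′ end, which rises with RNA breakdown, was 3.68 and 3.55 in Nootripathu and 4.50 and 4.56 in IR20. The same measure for GAPDH was 3.49 and 3.52 in Nootripathu and 3.46 and 3.79 in IR20, so the cultivars overlapped in it. The part of these control differences in the results was not tested. On the array of stressed IR20 replicate 2 the actin value was 6.14 and the GAPDH value 6.47, against 3.98 to 4.00 and 2.92 to 3.22 on the other stressed arrays, so the counts of the stressed comparison below are given with and without it.

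The tissue label was checked against 16 root markers, mostly transporters and enzymes of the root surface and endodermis. LSI1, the silicon influx channel of rice roots, had 14.52 and 14.49 in Nootripathu and 14.55 and 14.50 in IR20, near the top of the array's range, and the silicon exporter LSI2 had 13.25 and 13.35 in Nootripathu and 13.60 and 13.51 in IR20. Neither gene passed (adjusted p = 0.915 and 0.41 in limma). Of 17 genes of photosynthetic tissue, 3 were higher, 2 lower and 12 did not pass, and their mean signal was 6.58 and 6.53 in Nootripathu and 6.60 and 6.65 in IR20. The small subunit gene of Rubisco RBCS1 had 3.15 and 3.14 in Nootripathu and 2.98 and 3.13 in IR20, close to the lowest signals of the arrays. RBCS1 was chosen after its values were seen, and other members of that list were brighter. PPDK2 had 10.08 and 10.10 in Nootripathu and 8.47 and 8.59 in IR20. PSAH (LOC4339593) had 8.14 and 7.80 in Nootripathu and 6.67 and 6.66 in IR20. Of 11 seed storage genes, 1 was lower and 10 did not pass, and their mean signal was 5.36 and 5.36 in Nootripathu and 5.66 and 5.69 in IR20. The root markers themselves were lower in Nootripathu for 11 of 16 genes and higher for none that passed, with a median difference of -0.96. Their mean signal was 10.40 and 10.37 in Nootripathu and 11.35 and 11.38 in IR20. In RNA from whole roots, fewer cells of a type and less RNA per cell cannot be told apart.

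Of the 57258 probe sets, 11048 passed (19.3%). Nootripathu was higher in 4792 (8.37%) and lower in 6256 (10.9%). In all 11048 both arrays of one cultivar lay above both arrays of the other. Passing with 2 arrays a side nearly requires this, so it adds no support. It also held for genes that did not pass, such as NAC6 and HSP101. At least 2-fold differences were lopsided, with 1393 probe sets higher (2.43%) and 2370 lower (4.14%) in Nootripathu. Differences of at least 16-fold were found in 84 higher (0.147%) and 97 lower (0.169%) probe sets. The extremes, 8.32 and -9.44, belonged to probe sets that the annotation did not pair with a single gene. Fitting only the 4 watered arrays gave more calls, 13451, with 6117 higher and 7334 lower, so 11048 is not an upper figure. The count of 11048 fell to 6524 or 6415 without Nootripathu control replicate 1 or 2 and to 6691 without IR20 control replicate 2, where a lone array is assumed to vary like the other groups. Scaling the arrays to the poly-A spike-in transcripts instead gave 4710 calls, 2651 higher and 2059 lower, and shifted the median of all genes to 0.12, against -0.08 as deposited. Under that scaling the spread of the spike-in signals enters every SE. Their means were 11.09 and 10.51 on the stressed IR20 arrays and 11.09 and 10.67 on the stressed Nootripathu arrays. How far this spread, rather than the shift between cultivars, lowered the counts was not tested.

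**Figure D1:**
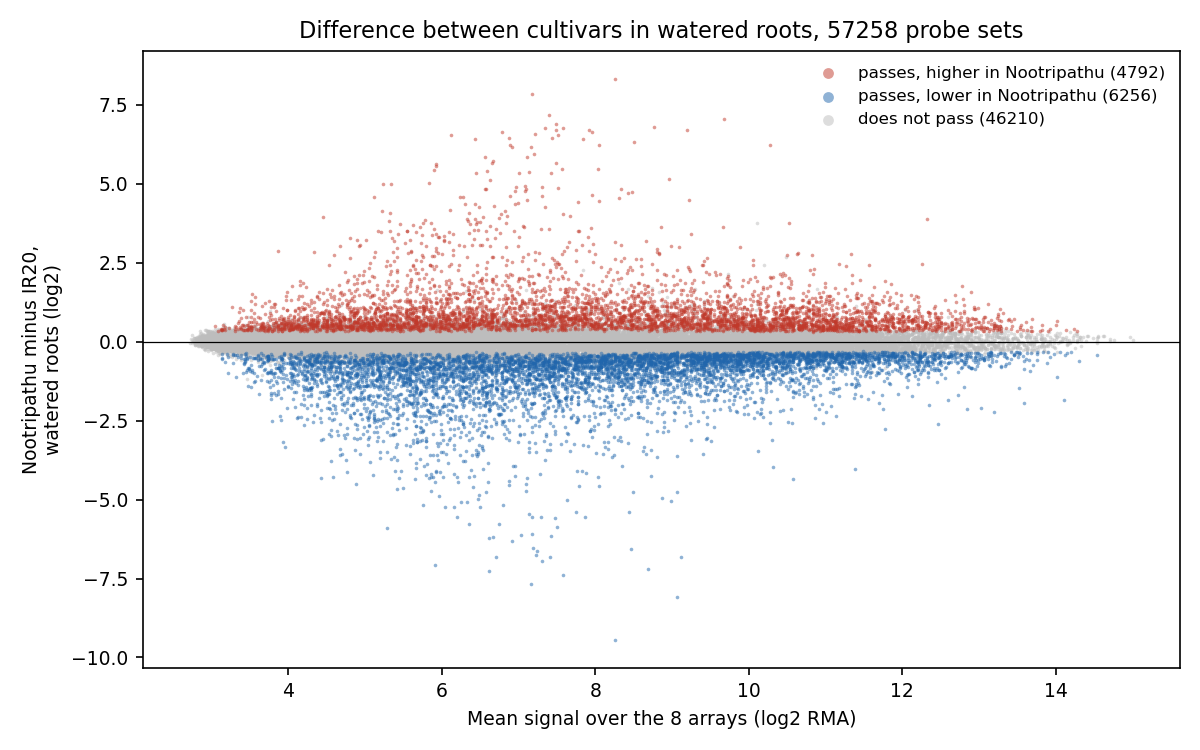
Each point is 1 of the 57258 probe sets, with its mean log2 signal over the 8 arrays on the horizontal axis and the difference Nootripathu minus IR20 in watered roots (log2, means of 2 arrays each) on the vertical axis. Red points (4792) passed and were higher in Nootripathu, blue points (6256) passed and were lower, and grey points did not pass. The lower side holds more points past a difference of 1.

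Taking the brightest probe set of each of 17905 annotated genes, 2259 genes were higher (12.6%) and 4075 lower (22.8%) in Nootripathu. Among the 2455 genes with a name, 329 were higher (13.4%) and 662 lower (27%). The counts for each gene group are read against these shares. The groups hold 968 named genes in 43 lists, of which 148 were higher, 300 lower and the rest did not pass. The 448 calls fell to 287 without Nootripathu control replicate 2.

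The largest rise in a named gene was that of EIL1B, a transcription factor of the family that carries out the ethylene response. EIL1B (LOC4332697) had 12.83 and 12.92 in Nootripathu and 6.16 and 6.18 in IR20, a difference of 6.70 ± 0.27 (104-fold, adjusted p = 2.25e-06 in limma). Its 2 Nootripathu arrays were among the bright signals of the array and its 2 IR20 arrays near the median. With it, 4 of 18 measured genes of ethylene synthesis and response were higher and 2 lower. CPK21 (LOC4346187), a calcium-dependent protein kinase, had 9.29 and 9.27 in Nootripathu and 4.41 and 4.61 in IR20, a difference of 4.77 ± 0.13 (27.2-fold, adjusted p = 4.09e-07). In IR20 it lay close to the 25th percentile of signal, 4.01, so this fold rests on a dim signal.

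MCM9 (LOC4340503), a helicase related to the replication helicase, had 8.78 and 8.86 in Nootripathu and 5.52 and 5.11 in IR20, and its difference was 3.51 ± 0.15; its other probe sets also passed, at 3.77 and 0.65. CCS1 (LOC4334251) differed by 3.51 ± 0.21. Agglutinin (LOC4335068), named as a lectin, was 3.07 ± 0.12 higher, OC-IV (LOC4324351), an oryzacystatin that inhibits cysteine proteases, 2.77 ± 0.13, IRL2 (LOC4329845) 2.69 ± 0.11 and the cytochrome P450 gene CYP714C2 (LOC4351346) 2.47 ± 0.25. Adjusted p of these 6 genes in limma lay between 2.22e-06 and 0.000287. LP02 (LOC4343515), listed as a subunit of the oxygen-evolving complex of chloroplasts, had 11.11 and 11.10 in Nootripathu and 8.83 and 8.85 in IR20, a difference of 2.27 ± 0.13.

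The largest fall in a named gene was that of BURP2 (LOC4338119), of a plant family named after its shared C-terminal domain. It had 6.69 and 6.78 in Nootripathu and 11.63 and 11.74 in IR20, a difference of -4.95 ± 0.15 (30.9-fold lower, adjusted p = 6.02e-07 in limma). Its other probe set passed at a smaller size, -1.79 ± 0.20 (3.45-fold lower). ILL3 (LOC4334707), an enzyme of the family that frees auxin from its amino acid conjugates, had 5.16 and 5.45 in Nootripathu and 10.30 and 10.11 in IR20, a difference of -4.90 ± 0.20. By these probe sets both genes were bright in IR20 and near or somewhat above the median signal in Nootripathu. CHARK (LOC4352167), a receptor kinase with a cytokinin-binding domain, differed by -4.41 ± 0.25 and the YABBY transcription factor gene FIL2 (LOC4333584) by -4.35 ± 0.25. FIL2 had 3.32 and 3.81 in Nootripathu, below the 25th percentile of signal, 4.01, so its fold rests on a dim signal. The peroxidase gene PRX74 (LOC4339222) differed by -4.28 ± 0.16 and the lipid transfer protein gene LTP110-A (LOC4349601) by -4.13 ± 0.13. RAG2 (LOC4342723), counted here among the seed storage markers, had 5.20 and 5.03 in Nootripathu and 8.97 and 9.12 in IR20. Its difference was -3.93 ± 0.20, and of its 3 other probe sets, which all passed, 2 were lower (-1.77 ± 0.22 and -1.25 ± 0.13) and 1 higher (0.56 ± 0.14) in Nootripathu. The arginine decarboxylase gene ADC2 (LOC4334917), which opens polyamine synthesis, had 6.66 and 6.60 in Nootripathu and 10.10 and 9.91 in IR20.

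**Figure D2:**
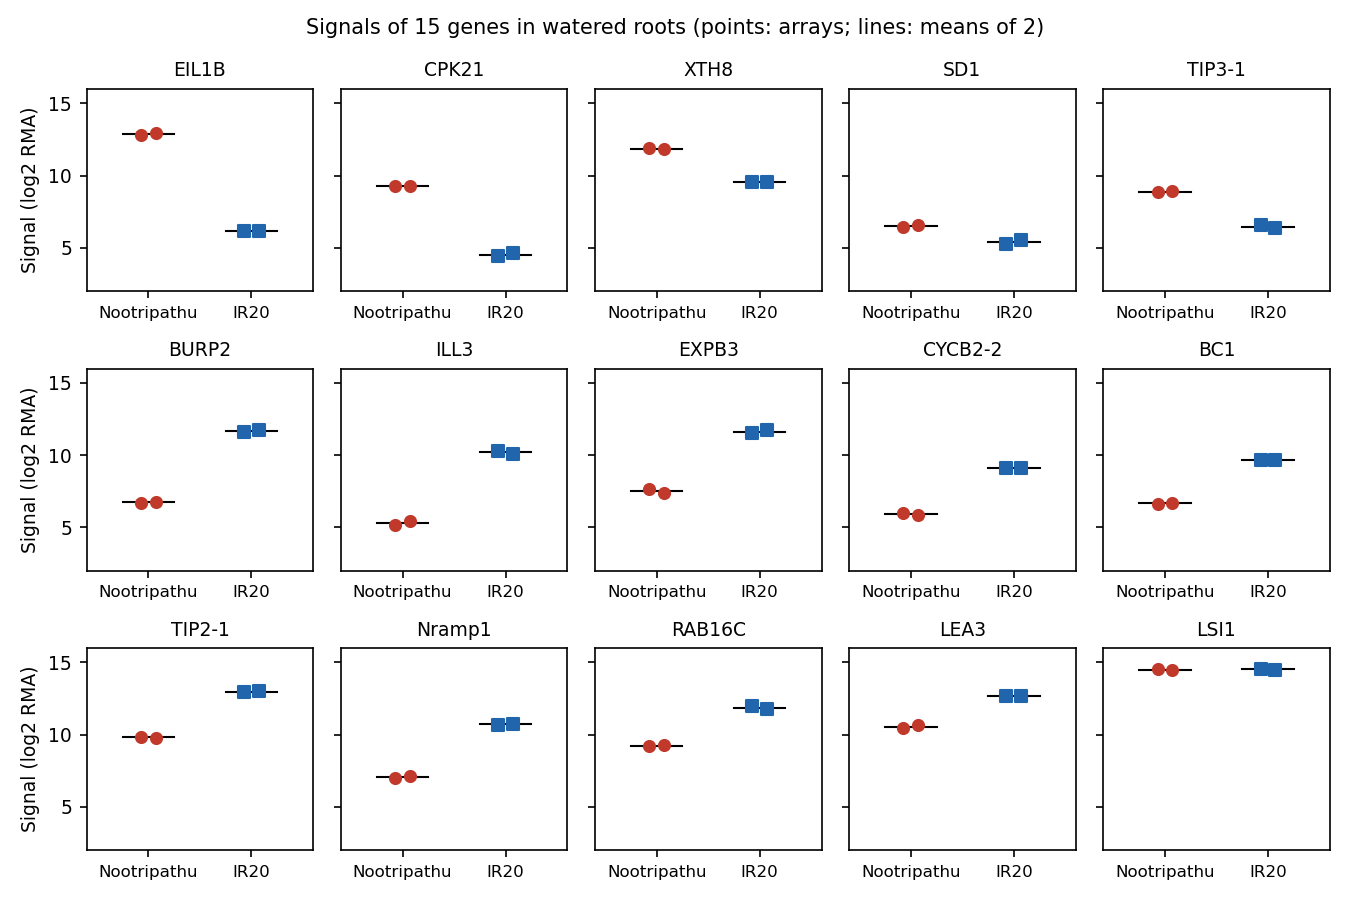
Log2 RMA signal of 15 genes in watered roots. Points are single arrays, Nootripathu (circles) left of IR20 (squares), and lines are means of the 2 arrays. In 14 genes the 2 arrays of one cultivar lie well above the 2 of the other, and LSI1 is at 14.5 in both.

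Some of the largest differences were found in genes that carry only a locus number. LOC4346960, annotated as a long non-coding RNA, had 10.85 and 10.81 in Nootripathu and 3.51 and 3.81 in IR20 (7.17 ± 0.12), by a probe set that may match several transcripts. LOC4328727 had 13.84 and 13.79 in Nootripathu and 6.61 and 6.91 in IR20 (7.05 ± 0.17), and its 3 other probe sets were 6.54, 6.70 and 2.42 higher. LOC4336804 had 3.20 and 3.63 in Nootripathu and 10.63 and 10.71 in IR20 (-7.26 ± 0.20), but its other probe set differed by -0.28 ± 0.14 and did not pass. LOC4349197 had 4.85 and 4.75 in Nootripathu and 11.94 and 12.07 in IR20 (-7.21 ± 0.13). For the first and the third of these the dimmer cultivar lay below the 25th percentile of signal, as it did for 57 of the 181 probe sets that differed at least 16-fold.

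Markers of dividing cells were mostly lower in Nootripathu. Of 43 measured, 2 were higher, 26 lower and 15 did not pass, with a median difference of -0.79 against -0.08 for all genes. The B-type cyclin gene CYCB2-2 (LOC4342121), which drives entry into mitosis, had 6.02 and 5.85 in Nootripathu and 9.08 and 9.09 in IR20, a difference of -3.16 ± 0.25 (adjusted p = 8.28e-05 in limma). Another B-type cyclin gene, CYCB2-1 (LOC4336670), differed by -2.83 ± 0.21 and the mitotic kinase gene CDKB2-1 (LOC4346016) by -2.59 ± 0.13. In each of these genes both Nootripathu arrays lay well below both IR20 arrays. CDKB2-1 and the MCM genes were chosen after their values were seen. The 6 subunit genes of the MCM replication helicase were all lower. MCM3 had 6.16 and 6.51 in Nootripathu and 8.36 and 8.19 in IR20 (-1.94 ± 0.29), and the others were MCM2 at -1.87 ± 0.15, MCM4 at -1.56 ± 0.26, MCM7 at -1.46 ± 0.17, MCM6 at -1.19 ± 0.15 and MCM5 at -1.18 ± 0.21. The 2 higher members were MCM9 and the D-type cyclin gene CYCD5-3 (LOC4331985) at 0.87 ± 0.12.

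The motor proteins and tubulins of the cytoskeleton moved the same way. Of 44 kinesin and tubulin genes, 1 was higher, 30 lower and 13 did not pass, with a median difference of -0.80. The kinesin gene KIN10A (LOC4331094) had 5.19 and 5.19 in Nootripathu and 7.83 and 7.75 in IR20 (-2.60 ± 0.12), and KIN12C (LOC4333349) differed by -2.37 ± 0.17. The one higher gene was TUB7 (LOC4334309), a beta-tubulin, at 0.51 ± 0.11, which did not pass without IR20 control replicate 1 (0.43) or without Nootripathu control replicate 1 or 2 (0.54 and 0.48); its other probe set passed at 0.79 ± 0.21. Of 10 growth-regulating factors, transcription factors that promote cell proliferation, 0 were higher, 4 lower and 6 did not pass, and GRF6 (LOC4333990) had 6.79 and 6.91 in Nootripathu and 9.95 and 9.61 in IR20. Of 25 ribosomal protein genes 0 were higher, 15 lower and 10 did not pass, with differences from -0.83 to 0.41. The calls in that group depended on scaling: against the poly-A spike-in transcripts 0 of the 25 passed and their median was -0.25, against -0.45 as deposited.

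**Figure D3:**
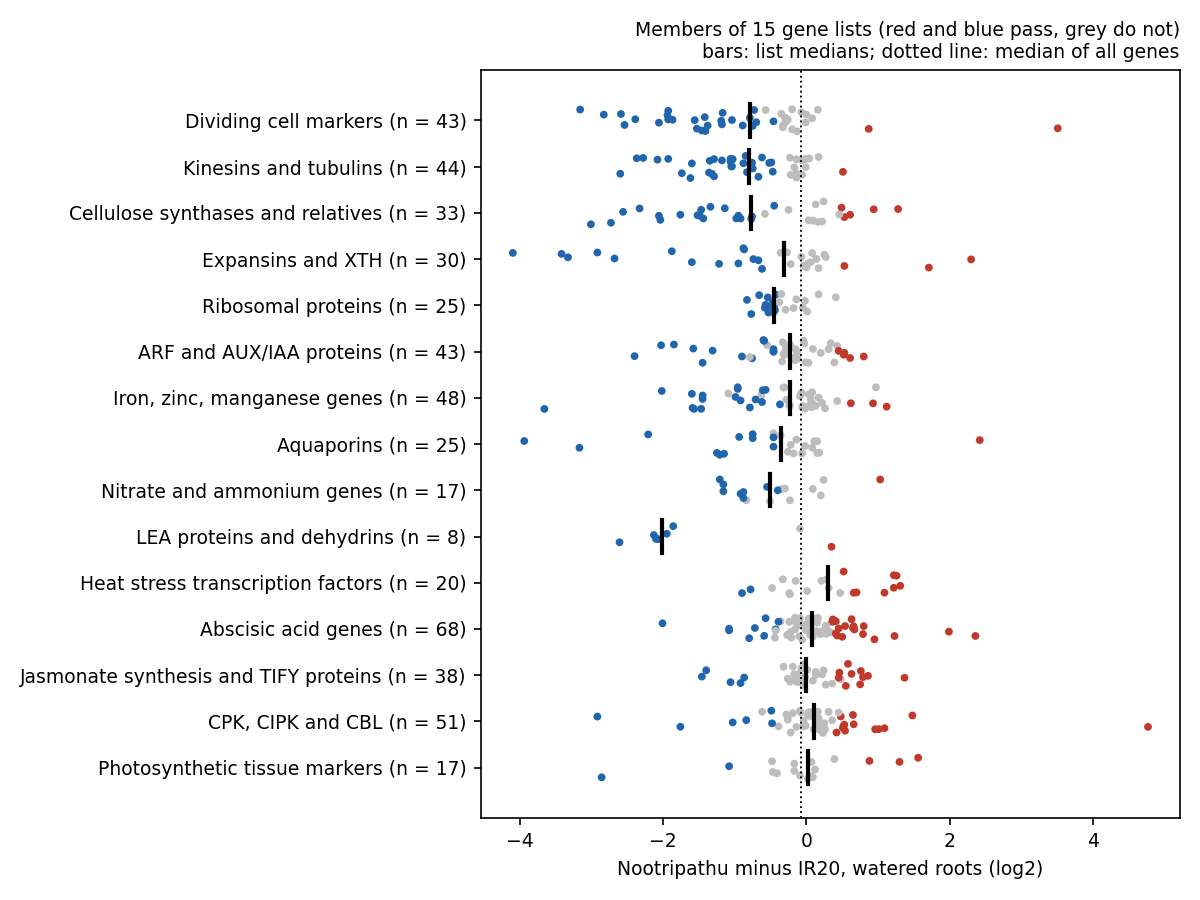
Differences Nootripathu minus IR20 in watered roots (log2, horizontal axis) of the measured members of 15 gene lists, 1 point a gene. Red points passed and were higher in Nootripathu, blue points passed and were lower, grey points did not pass, black bars are list medians and the dotted line is the median of all genes, -0.08. The lists at the top lie to the left of that line, with LEA proteins furthest left at a median of -2.01.

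Genes that build and loosen the wall were more often lower than higher in Nootripathu. Of 30 expansins and xyloglucan endotransglucosylases, 3 were higher, 14 lower and 13 did not pass, with a median of -0.31. The beta-expansin gene EXPB3 (LOC4349349) had 7.65 and 7.41 in Nootripathu and 11.54 and 11.73 in IR20, a difference of -4.10 ± 0.16 (17.1-fold lower, adjusted p = 1.86e-06 in limma). EXPB11 (LOC4330213) had 6.50 and 6.47 in Nootripathu and 9.91 and 9.91 in IR20, and the alpha-expansin gene EXPA1 (LOC4335222) had 5.77 and 5.51 in Nootripathu and 9.17 and 8.77 in IR20. Expansins loosen walls so that cells can enlarge. EXPB6, EXPB2, EXPB3 and EXPB4 stand next to each other among the measured genes of the annotation, and all 4 were lower, by -2.92 ± 0.19, -1.22 ± 0.21, -4.10 ± 0.16 and -2.68 ± 0.17. They are related in sequence, and the probe sets of EXPB3 and EXPB4 may match several transcripts, so the signal of one may include that of another. EXPB2, EXPB4 and EXPB6 were chosen after their values were seen. The higher members included XTH8 (LOC4345019), a xyloglucan endotransglucosylase gene, which had 11.88 and 11.87 in Nootripathu and 9.57 and 9.59 in IR20 (2.30 ± 0.13), and the expansin-like gene EXLA2 (LOC4349265) was 1.71 ± 0.46 higher. EXLA2 no longer passed without any 1 of the 4 watered arrays (1.62 to 1.80) or either stressed Nootripathu array, and its other probe set passed at 1.72 ± 0.42.

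Of 33 cellulose synthases and relatives, 5 were higher, 19 lower and 9 did not pass, with a median of -0.77. BC1 (LOC4333114), a COBRA-like protein needed for the strength of secondary walls, had 6.63 and 6.72 in Nootripathu and 9.69 and 9.67 in IR20 (-3.01 ± 0.09, adjusted p = 7.08e-07 in limma). CSLC3 (LOC4345095), of the cellulose synthase-like family, differed by -2.73 ± 0.13. The 3 cellulose synthases of the secondary wall, named after their values were seen, were all lower: CESA7 by -1.76 ± 0.15, CESA4 by -1.49 ± 0.10 and CESA9 by -1.44 ± 0.12. Against these, BC1L9 (LOC4349011), a BC1 relative, was 1.28 ± 0.11 higher, and CSLD2 (LOC4339895) was 0.94 ± 0.12 higher. Of 30 lignin enzymes and laccases 6 were higher, 11 lower and 13 did not pass, with a median of -0.10, near the -0.08 of all genes. The laccase genes LAC10 (LOC4332400) at -2.68 ± 0.12 and LAC3 (LOC4327522) at -2.31 ± 0.20 had the largest falls. LAC15 (LOC4348374) at 0.67 ± 0.19 and CAD8C (LOC9269515) at 0.59 ± 0.17 had the largest rises (adjusted p = 0.0474 and 0.0412 in limma). Of 22 genes named as Casparian strip membrane proteins or as proteins like them, 4 were higher, 9 lower and 9 did not pass, with a median of -0.12. Among the proteins like them, CASPL1B1 (LOC4352765) differed by -2.28 ± 0.27 and CASPL4B4 (LOC4338478) by 0.99 ± 0.11.

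Several groups of uptake genes were also more often lower than higher. Of 25 aquaporins, the water and solute channels, 1 was higher, 11 lower and 13 did not pass. TIP2-1 (LOC4330207), a channel of the vacuolar membrane, had 9.87 and 9.76 in Nootripathu and 12.96 and 13.01 in IR20, a difference of -3.17 ± 0.24, and its other probe set differed by -3.84 ± 0.15. The silicon transporter gene Lsi6 (LOC4340558) had 6.83 and 6.58 in Nootripathu and 10.61 and 10.68 in IR20 (-3.94 ± 0.17), whereas LSI1 and LSI2 did not pass. The single higher aquaporin was TIP3-1 (LOC4348981), a vacuolar channel known from seeds, with 8.85 and 8.91 in Nootripathu and 6.56 and 6.36 in IR20. The probe sets of Lsi6 and TIP3-1 may match several transcripts.

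Of 48 genes of iron, zinc and manganese acquisition, 3 were higher, 18 lower and 27 did not pass, with a median of -0.24. The largest rises were those of YSL13 (LOC4336441) at 1.12 ± 0.10 and YSL16 (LOC4336546) at 0.93 ± 0.15. Nramp1 (LOC4342862), a divalent metal transporter, had 7.0 and 7.1 in Nootripathu and 10.7 and 10.8 in IR20, a difference of -3.66 ± 0.10. The iron transporter gene IRT1 (LOC4333669) differed by -1.60 ± 0.13, the nicotianamine synthase gene NAS1 (LOC4332608) by -1.45 ± 0.25 and the manganese and iron transporter gene NRAMP5 (LOC4342859) by -0.92 ± 0.16, or by -0.72 and no longer passing against the spike-in transcripts. Of 17 genes of nitrate and ammonium use, 1 was higher, 8 lower and 8 did not pass. The ammonium transporter gene AMT1-2 (LOC4330008) was at -1.16 ± 0.09, and the 1 higher gene was AMT2-3 (LOC4327433) at 1.03 ± 0.15. The allantoinase gene ALN (LOC4337428), which recycles nitrogen from purines and is counted here with the proline and trehalose genes, had 8.65 and 8.71 in Nootripathu and 10.60 and 10.53 in IR20. Of 41 phosphate, potassium and sulfate transporters 6 were higher, 8 lower and 27 did not pass, a lower share below the 27% of all named genes, and against the spike-in transcripts 5 were higher and 3 lower. The potassium transporter gene HAK1 (LOC4335729) differed by -2.29 ± 0.11 and the phosphate transporter gene Pht1;8 (LOC4348741) by 1.32 ± 0.16, with its other probe sets at 1.06, which passed, and -0.00. HKT1.5 (LOC4327757), which withdraws sodium from the xylem, had 8.98 and 8.91 in Nootripathu and 10.98 and 10.93 in IR20.

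Gibberellin genes changed in both directions. Of 9 metabolic genes 2 were higher, 4 lower and 3 did not pass, and against the spike-in transcripts 2 were higher and 2 lower. SD1 (LOC4325003), the 20-oxidase of the semi-dwarf trait, had 6.47 and 6.61 in Nootripathu and 5.28 and 5.53 in IR20, a difference of 1.13 ± 0.13 (adjusted p = 0.000592 in limma). GA20OX3 (LOC4342505), another 20-oxidase, had 11.40 and 11.43 in Nootripathu and 10.27 and 10.41 in IR20 (1.07 ± 0.14). CPS1 (LOC4329013), the first committed enzyme of the pathway, had 6.27 and 6.08 in Nootripathu and 8.49 and 8.36 in IR20 (-2.25 ± 0.20). KO4 (LOC4341343), counted here by its symbol, of the ent-kaurene oxidase family, differed by -1.58 ± 0.12. Its part in gibberellin synthesis was not tested. What this probe set shows of SD1 is its signal and not the allele each cultivar carries.

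Calls among auxin response and cytokinin genes were close to the shares of all named genes, 13.4% higher and 27% lower, and against the spike-in transcripts the cytokinin genes had 2 calls in each direction. Of 43 auxin response factors and AUX/IAA repressors, 5 were higher, 13 lower and 25 did not pass, with IAA7 (LOC4328796) at -2.40 ± 0.10, IAA31 (LOC4352722) at -2.03 ± 0.11 and IAA6 (LOC4326541) at 0.80 ± 0.20. IAA6 did not pass without any 1 of the 4 watered arrays (0.75 to 0.85), and a second, dim probe set of IAA31 did not pass (-0.11). Among 6 auxin transporters, PIN2 (LOC4341736), which carries auxin away from the root tip, had 4.60 and 4.41 in Nootripathu and 6.87 and 6.69 in IR20 (-2.27 ± 0.12). PIN5 (LOC4327533) was lower by -1.63 ± 0.17 and PIN10a (LOC4326565) higher by 1.05 ± 0.11. Of 31 cytokinin genes 3 were higher, 10 lower and 18 did not pass, and the activating enzymes of the LOG family ran from LOGL10 (LOC4348914) at -1.25 ± 0.15 to LOGL3 (LOC4331344) at 1.35 ± 0.10. Of 10 regulators of root system architecture 0 were higher, 4 lower and 6 did not pass. SCR1 (LOC4349638), which patterns the endodermis, was among the lower ones at -0.89 ± 0.19, but did not pass without IR20 control replicate 2 (-0.78) or Nootripathu control replicate 1 or 2 (-0.97 and -0.82). WOX11 (LOC4344325), which drives crown root emergence, had 9.46 and 9.44 in Nootripathu and 9.98 and 10.02 in IR20 and did not pass (-0.55 ± 0.19, adjusted p = 0.0841 in limma), although it passed when only the 4 watered arrays were fitted. That count of 4 also depended on scaling, as 0 of the 10 passed against the spike-in transcripts.

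Late embryogenesis abundant (LEA) proteins, which protect cells from water loss, had the lowest median of the 43 lists. Of 8 measured, 1 was higher, 6 lower and 1 did not pass, with a median of -2.01, and against the spike-in transcripts 6 were lower and 0 higher. RAB16C (LOC4350452) had 9.24 and 9.25 in Nootripathu and 11.95 and 11.77 in IR20, a difference of -2.61 ± 0.12 (adjusted p = 4.36e-06 in limma). LEA3 (LOC4339480) had 10.47 and 10.65 in Nootripathu and 12.68 and 12.71 in IR20 (-2.13 ± 0.11). RAB16D, RAB16C, RAB16B and RAB21 are neighbours of one family, and the 3 not yet given, chosen after their values were seen, differed by -1.95 ± 0.10, -2.10 ± 0.10 and -1.86 ± 0.11 in that order. The dehydrin gene Dip1 (LOC4330265), the 1 higher member, had 14.17 and 14.22 in Nootripathu and 13.81 and 13.89 in IR20, and it did not pass without any 1 of the 4 watered arrays (0.31 to 0.39), while its other 2 probe sets, less bright, passed at 1.25 ± 0.19 and 0.97 ± 0.10. SalT (LOC4326471), a salt-induced lectin gene, had 11.62 and 11.52 in Nootripathu and 13.81 and 13.81 in IR20 (-2.24 ± 0.10), and its other probe set differed by -2.76 ± 0.10.

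Several families of stress regulators had more higher than lower calls. Of 20 heat stress transcription factors 8 were higher, 2 lower and 10 did not pass, with HSFA9 (LOC4332113) at 1.31 ± 0.10 and HSF2 (LOC4346229) at 1.26 ± 0.25. HSF2 did not pass without IR20 control replicate 1 or 2 (1.22 and 1.29) or Nootripathu control replicate 2 (1.21), and its other probe set did not pass (-0.02). Of 68 genes of abscisic acid metabolism and signalling, 18 were higher, 9 lower and 41 did not pass. The protein phosphatase genes PP2C61 (LOC4342246), with 9.57 and 9.49 in Nootripathu and 7.15 and 7.20 in IR20, and PP2C69 (LOC4347278), with 7.59 and 7.46 in Nootripathu and 5.39 and 5.67 in IR20, had the largest rises of that list. Its largest fall was that of PP2C16 (LOC107276004), of the same family, at -2.01 ± 0.16. Of 34 DREB, NAC and bZIP regulators 9 were higher, 4 lower and 21 did not pass, and DREB2A (LOC4324418) was higher by 0.71 ± 0.13, but did not pass without IR20 control replicate 1 (0.60) or Nootripathu control replicate 1 (0.66). BZIP06 (LOC4325139) had the largest fall of these regulators, at -2.12 ± 0.23. Some well-known drought regulators did not pass: DREB1A had 12.60 and 12.66 in Nootripathu and 12.55 and 12.68 in IR20, bZIP23 12.93 and 12.90 in Nootripathu and 12.74 and 12.75 in IR20, and NAC6 12.50 and 12.44 in Nootripathu and 12.20 and 12.27 in IR20. NAC5 and HSP101, a heat shock chaperone, also did not pass, at -0.23 ± 0.35 and 0.12 ± 0.13. Of 51 calcium-dependent and CBL-interacting kinases and their partners 13 were higher, 6 lower and 32 did not pass. They ran from CIPK18 (LOC4338445) at -2.92 ± 0.23 to CPK21 at 4.77 ± 0.13.

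Defence genes moved in both directions. Of 15 chitinases, glucanases and PR proteins 4 were higher and 4 lower, with the chitinase genes Cht6 (LOC4329920) at 2.07 ± 0.23 and Cht1 (LOC4338719) at 1.60 ± 0.13 and PBZ1 (LOC4352491), a pathogenesis-related protein, at -1.34 ± 0.13. Of 6 WRKY factors 4 were higher and 0 lower, among them the neighbours WRKY76 (LOC4347069) at 0.99 ± 0.10 and WRKY62 (LOC4347070) at 0.86 ± 0.21. WRKY62 did not pass without any 1 of the 4 watered arrays (0.83 to 0.88). Of 38 jasmonate and TIFY genes 10 were higher, 5 lower and 23 did not pass, with OPR4 (LOC4340484), of the oxophytodienoate reductase family, at 1.37 ± 0.13 and the lipoxygenase gene LOX1.1 (LOC4334049) at -1.46 ± 0.18. Of 15 genes of diterpenoid phytoalexin synthesis 0 were higher, 6 lower and 9 did not pass, including the cyclase gene CPS2 (LOC9266189), with 6.71 and 5.91 in Nootripathu and 7.51 and 7.78 in IR20. Among the photosynthetic genes the plastocyanin gene PETE (LOC4339833) had 4.66 and 4.53 in Nootripathu and 7.34 and 7.57 in IR20, and PPDK2 (LOC4333181), of pyruvate orthophosphate dikinase, 10.08 and 10.10 in Nootripathu and 8.47 and 8.59 in IR20.

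Lists with no clear lean included 27 heat shock proteins (4 higher, 3 lower), 36 genes of sugar transport and sucrose metabolism (5 higher and 7 lower, but 4 higher and 0 lower against the spike-in transcripts), 38 homeobox and YABBY factors (7 higher, 10 lower), 31 MADS-box factors (4 higher, 4 lower), 10 SAUR and GH3 genes (2 higher, 3 lower), 10 brassinosteroid and strigolactone genes (2 higher, 1 lower) and 6 genes of gibberellin signalling (0 higher, 1 lower). Of 17 genes that remove peroxides 1 was higher and 7 lower, of 12 genes of proline and trehalose synthesis 3 were higher and 5 lower, of 6 glutathione S-transferases 1 was higher and 3 lower, of 4 genes of ethanol fermentation 0 were higher and 2 lower, and of 9 germins 3 were higher and 0 lower.

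Genes with several probe sets allowed a comparison within the arrays, since differences in transcript level and in the cultivars' own sequence under a probe cannot be told apart from 1 probe set. Some pairs, as in MCM9 and TIP2-1, have identifiers that differ only in the suffix and may share probes. Agreement in such pairs cannot separate transcript level from sequence. Among 3444 genes with several probe sets the brightest probe set passed in 1142. The next brightest probe set passed in the same direction in 450 (39.4%), in the opposite direction in 34 (2.98%) and did not pass in 658. Without any 1 of the 4 watered arrays the opposite pairs numbered 12 to 17. Where the brightest differed at least 2-fold, 199 of 351 next probe sets passed the same way (56.7%) and 11 the opposite way (3.13%). Where it differed at least 16-fold, 12 of 17 passed the same way and 0 the opposite way, but only 5 also differed 16-fold.

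**Figure D4:**
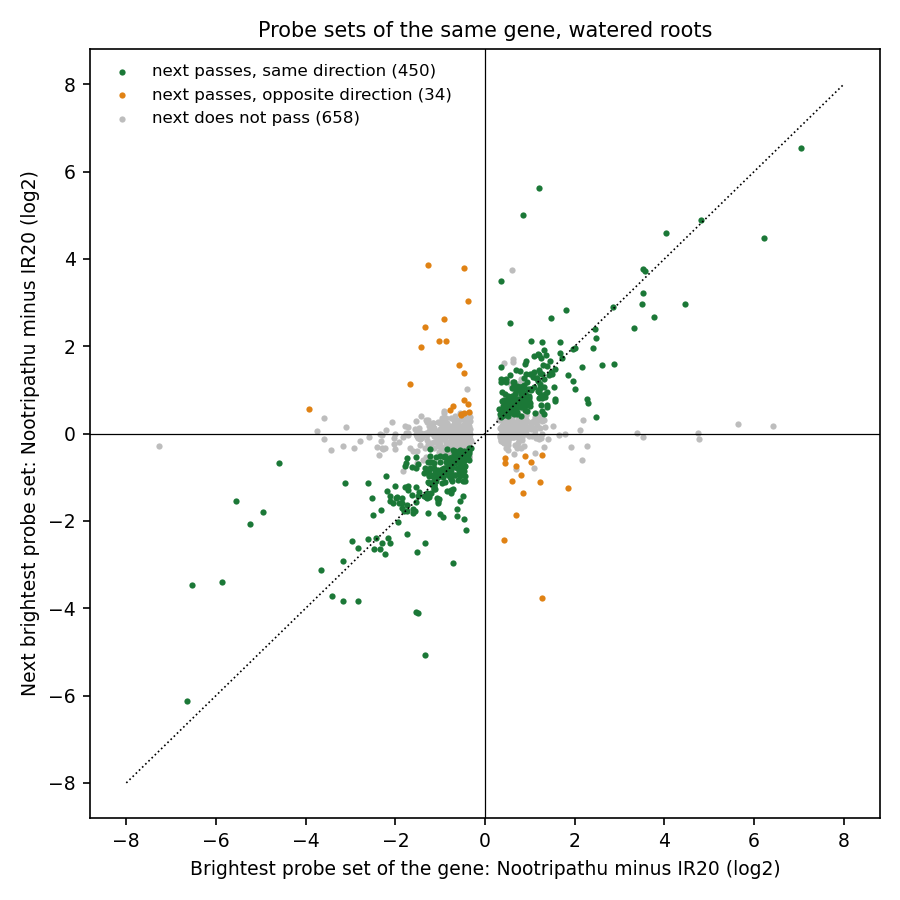
Each point is 1 of the 1142 genes whose brightest probe set passed, with the difference Nootripathu minus IR20 (log2, watered roots) of that probe set on the horizontal axis and of the next brightest probe set of the gene on the vertical axis. Green points passed in the same direction in both (450), orange points passed in opposite directions (34), grey points did not pass in the second probe set (658), and the dotted line marks equal differences.

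Stressed roots, measured on 4 other arrays, showed which cultivar differences were also present in the dry pipes. There 12601 probe sets passed (22%), with 3246 genes higher (18.1%) and 2983 lower (16.7%) in Nootripathu; without stressed IR20 replicate 2, 12572 probe sets passed and the genes were 3899 higher and 2382 lower. The probe set count fell to 7266 or 7319 without stressed Nootripathu replicate 1 or 2. Of the 181 probe sets (0.316%) with at least 16-fold differences in watered roots, 160 passed the same way in stressed roots (88.4%), 1 passed the opposite way, 20 did not pass, and 119 again differed at least 16-fold. Without stressed IR20 replicate 2 these counts were 160, 2, 19 and 117. Of 1393 probe sets at least 2-fold higher in watered Nootripathu, 59.4% were higher and 9.4% lower in stressed Nootripathu, against 10.7% and 11.3% of all probe sets. Of 2370 at least 2-fold lower, 29.2% were lower and 20% higher. Without stressed IR20 replicate 2 the probe sets higher in watered Nootripathu were 58.1% higher and 8.69% lower, and the lower ones 26.3% lower and 23.5% higher.

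**Figure D5:**
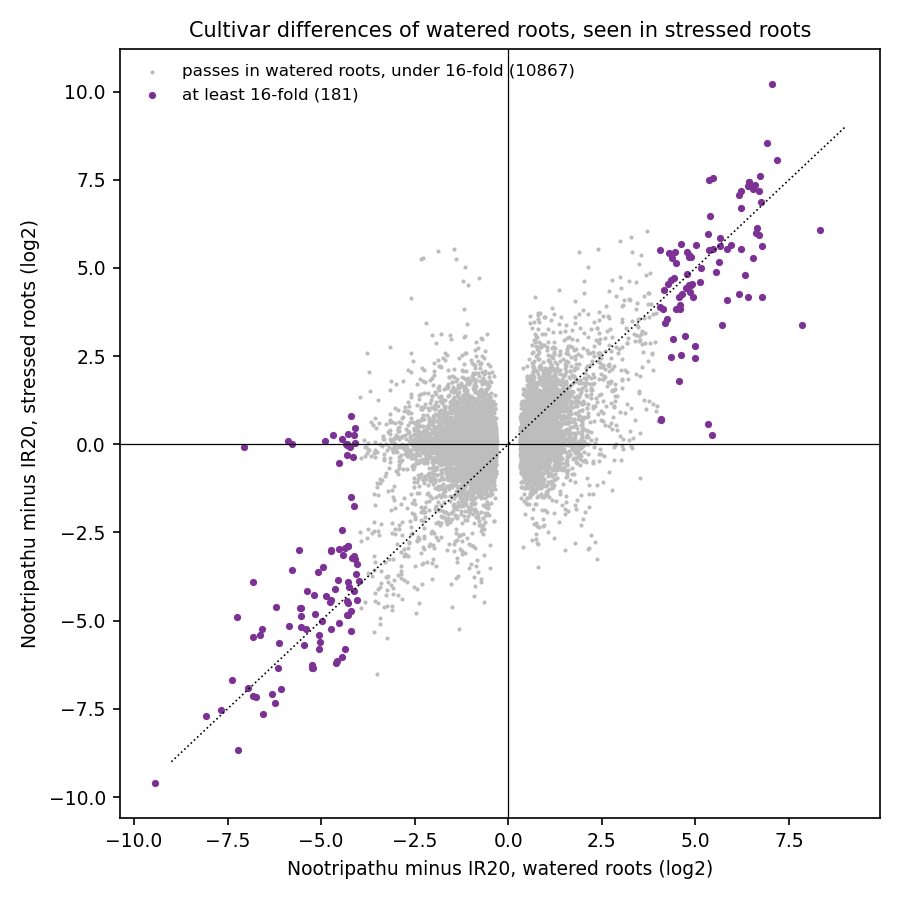
Each point is a probe set that passed in watered roots, with the difference Nootripathu minus IR20 (log2) in watered roots on the horizontal axis and in stressed roots on the vertical axis. Purple points (181) differed at least 16-fold in watered roots and lie mostly along the dotted line of equal differences, while the grey points below 16-fold spread around 0 on the vertical axis.

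By gene, EIL1B (5.93 ± 0.27 in stressed roots), CPK21 (5.46 ± 0.13), XTH8 (2.50 ± 0.13), CYP714C2 (2.46 ± 0.25), LOC4346960 (8.06 ± 0.12) and LOC4328727 (10.21 ± 0.17) stayed higher in Nootripathu under stress. BURP2 (-3.48 ± 0.15), CHARK (-3.13 ± 0.25), FIL2 (-2.93 ± 0.25), RAG2 (-2.75 ± 0.20), LOC4349197 (-8.68 ± 0.13) and LOC4336804 (-4.91 ± 0.20) stayed lower. In ILL3 (0.09 ± 0.20), PRX74 (0.28 ± 0.16), LTP110-A (0.26 ± 0.13), EXPB3 (0.45 ± 0.16), EXPB11 (0.01 ± 0.10) and SD1 (-0.13 ± 0.13) the difference in stressed roots did not pass, although EXPB3 passed without stressed IR20 replicate 2 (0.65). The RAB16 genes and LEA3 lay between 14.04 and 15.26 in the stressed means of both cultivars, close to the brightest signals of the arrays, where a difference can be compressed.

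Some groups lower in watered Nootripathu were more often higher than lower in stressed Nootripathu, and others were not. Of all genes, 18.1% were higher and 16.7% lower in stressed Nootripathu. Of the 43 markers of dividing cells 18 were higher and 5 lower there, of the 44 kinesins and tubulins 21 were higher and 0 lower, and of the 33 cellulose synthases and relatives 18 were higher and 2 lower. Without stressed IR20 replicate 2 these counts were 22 and 4, 22 and 0, and 18 and 2. The difference for MCM2 to MCM7 was 1.87 to 3.10 in stressed roots, and 2.10 to 3.59 without that array. BC1 averaged 8.60 in stressed Nootripathu and 6.89 in stressed IR20, a difference of 1.71 ± 0.09. ALN averaged 10.10 in stressed Nootripathu and 4.63 in stressed IR20, a difference of 5.47 ± 0.12. PP2C61 was lower instead, at 7.21 in stressed Nootripathu and 8.36 in stressed IR20. Other groups lower in watered Nootripathu did not turn in this way. With all 4 stressed arrays, 3 of the 25 aquaporins were higher and 10 lower. Of the 48 genes of iron, zinc and manganese acquisition 10 were higher and 10 lower, and of the 30 lignin enzymes and laccases 5 and 8. None of the 8 LEA genes passed in stressed roots.

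Neighbouring genes of the annotation differed in the same direction in some pairs and in opposite directions in others. Among genes at least 2-fold different, 50 adjacent pairs were both higher, 167 both lower and 109 opposite, with 610 genes higher (3.41%) and 1493 lower (8.34%) at that size. There were 30 runs of 3 or more neighbours in 1 direction, 5 higher and 25 lower, and the longest held 4 genes, as in the EXPB and RAB16 clusters. With more lower than higher genes, more lower pairs and runs arise even among unrelated neighbours. How many pairs and runs unrelated neighbours would give was not tested.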

How the data were processed

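Root RNA (2 ug per sample) was hybridised to the Affymetrix rice genome array, per the labels. The deposited values are log2 signals the authors made by RMA in Affymetrix Expression Console 3.0, per the submitters' processing notes; RMA corrects background, normalises arrays by quantiles and summarises probes, and compresses folds of dim signals. Array medians lay between 5.29 and 5.35. Sequencing depth does not apply to arrays, and 2 arrays a group limit the precision. Raw scans were not used here.

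Groups came from the labels. limma 3.58.1 in R 4.3.3 fitted 1 mean per group over the 8 arrays (4 residual and 3.88 prior degrees of freedom, prior standard deviation 0.129), so an SE reflects the spread in all 4 groups. The 123 control probe sets were left out. The fit was tested on simulated data.

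The array annotation gave 22436 probe sets exactly 1 gene, for 17905 genes; 95 probe sets with several genes, and those with none, stayed unnamed. All 22436 matched the RefSeq table of assembly ASM3414082v1, of a japonica rice, which served for symbols and gene order only. The brightest probe set stood for its gene.

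Lists, single genes and the comparison were chosen with earlier results of these data known, and 5 lists were added afterwards (kinesins and tubulins, growth-regulating factors, kinases, homeobox and YABBY, MADS-box). Lists hold only genes named by symbol. Named genes were the 15 largest passing differences per direction among genes with a name, up to 2 per direction in a list, the single genes (23 of 36 found) and the 2 largest per direction among genes without a name; the text describes a part of these. Genes outside this rule are said to be.

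Alternatives were the replicate number as a block, fitting only the 4 watered arrays, dropping the dimmest 40% of probe sets, centring arrays on their medians, a second quantile normalisation, scaling to 12 probe sets for the 3′ ends of poly-A spike-in transcripts, 2 other priors, weights for arrays, dropping probe sets whose suffix marks matches to several transcripts, differences of at least 2-fold, other probe sets of a gene, and leaving out each array in turn.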

Additional observations from a re-analysis of the deposited data

Results flagged for a closer look

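For 108 of the genes named in the report, the difference between cultivars was compared between stressed and watered roots. RBCS1, PSAH, PP2C16, BZIP06 and CIPK18 were not among the 108. The comparison used the interaction term of the limma fit (adjusted p under 0.05). It passed for 83 of 108 genes, with the difference more positive in stressed roots in 62 and more negative in 21. In 24 the cultivars passed in opposite directions in the 2 conditions. Over all genes the share was 32.9%; the 108 genes were mostly named for large watered differences, which enter this term. Without stressed IR20 replicate 2, the array with the high actin value, 1 of the 83 no longer passed. Values are the stressed difference minus the watered difference (log2), each difference being Nootripathu minus IR20.

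Genes of dividing cells and the cytoskeleton were at 4.80 (MCM3), 4.66 (MCM4), 4.27 (MCM2), 4.22 (MCM5), 3.38 (MCM7), 3.06 (MCM6), 3.78 (CYCB2-2), 3.06 (CYCB2-1), 3.34 (CDKB2-1), 1.01 (CYCD5-3), 2.44 (KIN10A), 2.43 (KIN12C) and 2.26 (GRF6). Wall genes were at 4.72 (BC1), 4.55 (EXPB3), 3.63 (EXPB4), 3.44 (EXPB11), 3.05 (EXPA1), 2.55 (EXPB6), 1.19 (EXPB2), 3.16 (CSLC3), 2.65 (CESA4), 2.41 (CESA7), 1.74 (CESA9), 3.58 (LAC10) and 2.34 (LAC3). Transport and nitrogen genes were at 7.36 (ALN), 4.29 (Nramp1), 4.24 (AMT1-2), 3.55 (Lsi6), 3.46 (LSI2), 3.33 (TIP2-1), 2.45 (NRAMP5), 1.90 (IRT1), 1.13 (HKT1.5), -1.50 (Pht1;8) and -2.69 (TIP3-1). Hormone genes were at 4.99 (ILL3), 3.78 (LOGL10), 2.71 (IAA31), 2.58 (IAA7), 2.39 (PIN2), 2.33 (PIN5), 2.05 (CPS1), 1.29 (CHARK), -0.75 (LOGL3), -1.26 (KO4) and -1.26 (SD1).

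Stress genes were at 2.46 (RAB16C), 2.11 (LEA3), 2.09 (RAB16D), 1.97 (RAB16B), 1.86 (RAB21), 0.85 (DREB1A), -0.77 (HSFA9), -1.13 (DREB2A), -2.04 (PP2C69), -2.24 (HSF2) and -3.50 (PP2C61). Defence and photosynthetic genes were at 2.85 (PETE), 2.03 (LOX1.1), -1.21 (OPR4), -1.67 (Cht6), -2.11 (PPDK2), -2.40 (PBZ1), -2.75 (LP02), -3.49 (Cht1) and -3.90 (CPS2). The remaining genes were at 4.56 (PRX74), 4.39 (LTP110-A), 3.34 (ADC2), 3.16 (LOC4328727), 2.34 (LOC4336804), 1.47 (BURP2), 1.42 (FIL2), 1.18 (RAG2), 0.89 (LOC4346960), 0.86 (Agglutinin), 0.69 (CPK21), -1.48 (LOC4349197), -1.58 (CCS1), -2.34 (OC-IV) and -3.47 (IRL2).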

How the results depend on the processing

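No alternative gave a probe set that passed in the opposite direction to a watered call as first fitted. Scaling to the poly-A spike-in transcripts gave 4710 watered calls (2651 higher, 2059 lower; 56.3% of calls higher, against 43.4%), 4386 stressed calls, 3228 for the change between conditions, 214 passing list members and 7 genes whose first and second probe sets passed in opposite directions. A 2-fold minimum gave 3763 (1393 higher, 2370 lower), 3587, 5142, 190 and 8. Leaving out 1 array gave 6415 to 14494 watered calls (2596 to 6590 higher, 3797 to 7904 lower), 7266 to 14365 stressed calls, 6509 to 14153 for the change, 287 to 528 list members and 12 to 62 opposite pairs. The opposite pairs were 34 as first fitted, 64 with array weights, 53 with only the 4 watered arrays and 22 without probe sets that may match several transcripts. The cause of these moves was not tested. Median-centring gave 10529 watered calls, renewed quantiles 11242, the trended priors 12227 and 12766 (the second robust), array weights 14834 and the 34355 brighter probe sets 11202. The 45861 probe sets whose suffix does not mark matches to several transcripts gave 8517. Of the 108 genes above, 87 kept their probe set under that filter. Lsi6, TIP3-1, LEA3, PPDK2 and LOC4346960 were among those that did not. The replicate numbers, shared by the groups, paired deviations at r of -0.0145 to 0.207, which does not show paired samples; with the replicate number as a block 11080 watered probe sets passed, of which 10489 were among the 11048. Sign changed in LSI1 (0.18 against the spike-in transcripts, and from -0.04 to 0.00 over the arrays left out) and DREB1A (-0.01 median-centred, and from -0.05 to 0.08 over the arrays left out), neither of which passed, and in other probe sets of RAG2 (0.56), NAC6 (-0.27), HSF2 (-0.02) and Pht1;8 (-0.00). NAC6 and bZIP23 passed with a trended prior. Array signals ended near 15, which limits what differences of bright genes such as LSI1 can show.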
